A study of Homo sapiens with 4 samples.

Results

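The core histones H2A, H2B, H3 and H4 and the linker histone H1 are encoded by families of short genes that lie next to each other in clusters. The transcripts of 80 such cluster genes were followed in T24 cells with and without the TET1 catalytic domain (TET1-CD). The genes were chosen by symbol alone, from the names HIST1 to HIST4 followed by H1, H2A, H2B, H3 or H4, and make up 80 of the 57879 genes in the deposited files. Of these, 6 belonged to the H1 class, 20 to H2A, 24 to H2B, 15 to H3 and 15 to H4. According to the annotation, 70 were protein-coding and 10 were pseudogenes whose symbols passed the rule.

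Most histone cluster genes are switched on in S phase, when new DNA has to be packed into nucleosomes, and have no introns. Their mature mRNA typically ends in a short stem-loop that is bound by SLBP and takes the place of a poly(A) tail. Some of them can also give longer, polyadenylated mRNA when the RNA polymerase reads past the stem-loop, which is best known from cells that divide slowly or differentiate. Replacement variants such as H3.3 and H1.0 come from other genes, are made throughout the cell cycle and are polyadenylated.

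T24 is an established human bladder carcinoma line. The cells were grown in RPMI medium with 10% FCS and stably expressed an empty vector (EV, labelled control) or a FLAG-tagged TET1-CD, the part of the DNA demethylase TET1 that oxidizes methylated cytosine. RNAseq was available for 2 libraries in each group. Constructs went in by lentivirus with puromycin selection, whether the cells of a group were 1 clone is not stated, and nothing says that the 2 libraries came from separate cultures. The p-values therefore measure only the spread between these libraries, which may be technical.

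TET1 had 111 and 83 counts with EV and 2939 and 3310 with TET1-CD, in the direction that the labels give, although fragments of the construct and of the endogenous gene were not separated. Totals ran from 17442143 to 20295266 fragments per library. Of 16 urothelial markers, 7 had 3 counts or fewer in every library, namely KRT5, KRT13, KRT20, UPK1A, UPK1B, UPK3A and TP63, while KRT7 had between 15981 and 22638 counts. The 16 markers summed to 2395 and 2376 CPM (counts per 1000000, scaled by TMM) with EV and 2743 and 2710 CPM with TET1-CD. Of 8 markers tested 6 rose and 0 fell by edgeR, where 10.0% and 9.61% of all genes did. The rises were led by KRT17, KRT7, KRT19 and GATA3. The part of these markers in the results on histone genes was not tested. Markers of leukocytes summed to at most 0.982 CPM and those of endothelium to at most 1.12 CPM, with 1 gene tested in each list and not called.

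The stem-loop is the sequence that sets these genes apart, and it is shown here because the transcripts are sorted further on by whether they end at it. The pattern searched was GG, any 2 bases, CTTTT, any base, AG, any 2 bases and CC. Read on the strand of the gene within it or up to 200 bases past its end, the pattern was found in 73 of the 80 genes and in 67 of the 70 protein-coding ones. It took 8 different sequences. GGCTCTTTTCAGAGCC was in 43 genes and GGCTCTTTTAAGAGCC in 10. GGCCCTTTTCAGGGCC was in 10 genes and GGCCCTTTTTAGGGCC in 4, and all of those 14 were H4 genes. The stem-loops of 6 genes with many counts are given below, read 5′ to 3′ on the gene's own strand from GRCh37, with the pattern in capitals and 5 bases on either side.
HIST1H2BK: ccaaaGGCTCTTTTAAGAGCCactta
HIST1H1C: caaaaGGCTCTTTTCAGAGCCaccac
HIST1H2AC: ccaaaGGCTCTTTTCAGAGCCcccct
HIST1H2BD: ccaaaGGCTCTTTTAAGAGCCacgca
HIST2H2BE: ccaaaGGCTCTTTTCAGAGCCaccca
HIST1H4H: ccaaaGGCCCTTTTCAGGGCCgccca
The pattern of HIST1H2BK was at chr6:27114145-27114160 on the minus strand, and the listed gene ran on for 8072 bases past it. For HIST1H2AC it was at chr6:26124897-26124912 on the plus strand, with 14432 bases of the listed gene past it, and for HIST1H2BD 12747 bases followed. HIST1H1C, in contrast, ended 4 bases past its stem-loop. These distances are along the genome and include any introns.

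The cluster genes took a very small share of each library. They summed to 2737 and 3110 counts with EV and to 3009 and 3612 with TET1-CD, or 0.0135% and 0.0178% against 0.0172% and 0.0185% of all counts. The library protocol names poly(A) isolation or rRNA removal as alternatives, and which was used is not stated. RNAs known to lack a poly(A) tail, such as RN7SK, were also scarce. That list of 32 symbols summed to between 13.1 and 15.3 CPM in the 4 libraries, and by edgeR, DESeq2 and limma-voom alike 0 of its 3 tested genes were called, with 0 at an unadjusted p under 0.05 by edgeR. RN7SK had 19 and 17 counts with EV and 7 and 13 with TET1-CD (log2 fold change -0.83, adjusted p = 0.232 by edgeR). The values below therefore describe whichever histone transcripts the preparation retained.

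Of the 80 genes, 16 had no count in any library and 24 others never exceeded 3 counts. A further 21 exceeded 3 counts somewhere but had too few for a test, and 19 were tested. All 19 were protein-coding, and 16 of them lay in the HIST1 cluster on chromosome 6. By class, 1 H1, 4 H2A, 9 H2B, 2 H3 and 3 H4 genes were tested. These are the more abundant genes of the clusters and do not stand for all members.

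Between TET1-CD and EV, 1 of the 19 tested genes rose, HIST1H2BK, and 1 fell, HIST1H2AC, at an adjusted p of 0.05 by the quasi-likelihood test of edgeR. Across all 14573 genes tested, 10.0% rose and 9.61% fell by the same rule. No histone gene was called and also changed by 2-fold, against 2.72% of all genes for rises and 1.04% for falls. At an unadjusted p under 0.05, 3 histone genes passed in all, and by DESeq2 and limma-voom there was likewise no 2-fold call at an adjusted p of 0.05. By the study's stated thresholds, 2-fold with a p under 0.05 that is not said to be adjusted, 0 histone genes were higher and 1 was lower by edgeR, HIST1H2BG, where 3.34% and 1.54% of all genes were. The log2 fold change was above 0 for 9 genes and below 0 for 10, with a median of -0.056, where the median of all genes was 0.001. Both TET1-CD libraries lay above both EV libraries for 2 histone genes and below them for 5, and the groups overlapped for 12. Among all genes tested, 30.8% lay above and 30.2% below. With 19 genes tested, 1 call in each direction is too few to set the rate of calls apart from that of all genes. A difference in rate was not tested.

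**Figure D1:**
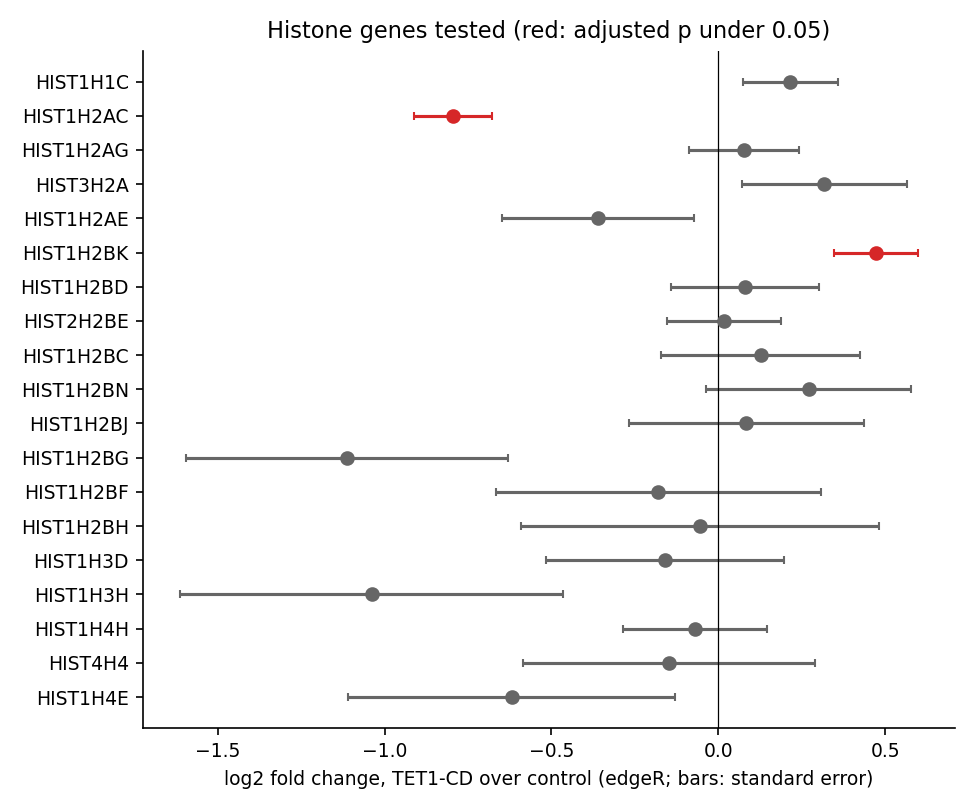
log2 fold change of TET1-CD over EV with its standard error (horizontal axis) for the 19 tested histone cluster genes, ordered by histone class, from edgeR, with genes past an adjusted p of 0.05 in red. HIST1H2BK (0.47) and HIST1H2AC (-0.80) are the red points, and the genes with the widest bars are those with few counts.

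HIST1H2BK (now H2BC12, chr6:27106073-27114619 in GRCh37, minus strand) encodes an H2B and was the most abundant cluster gene. Its counts were 1134 and 1371 with EV and 1588 and 1891 with TET1-CD. In CPM these were 56.0 and 79.2 with EV and 90.5 and 96.4 with TET1-CD, so that the groups did not overlap, but the EV libraries differed from each other by more than the nearer pair of libraries did between the groups. The mean was 67.6 ± 16.4 CPM (SD, n = 2) with EV and 93.5 ± 4.21 CPM (SD, n = 2) with TET1-CD, a 1.39-fold rise (log2 fold change 0.47, standard error, SE, 0.13, adjusted p = 0.026 by the quasi-likelihood test of edgeR). The call was lost with DESeq2 (log2 fold change 0.47, adjusted p = 0.258) and without TET1-CD replicate 2 (log2 fold change 0.42, adjusted p = 0.0793 by edgeR). The size rested on the EV libraries, with a log2 fold change of 0.23 without EV replicate 1 and 0.74 without EV replicate 2. A fit without 1 library leaves that group with no replicate, so its p-value takes no spread from that group. HIST1H4I, on the opposite strand within the listed span of HIST1H2BK, had between 3 and 10 counts, and whether the counting used strand is not stated.

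HIST1H2AC (now H2AC6, chr6:26124373-26139344 in GRCh37, plus strand) encodes an H2A and was the third most abundant by counts. It had 397 and 393 counts with EV and 198 and 255 with TET1-CD. In CPM the libraries stood at 19.6 and 22.7 against 11.3 and 13.0, and the groups did not overlap. The mean fell from 21.2 ± 2.19 CPM (SD, n = 2) to 12.1 ± 1.22 CPM (SD, n = 2), to 0.576 of the EV level (log2 fold change -0.80, SE 0.12, adjusted p = 0.00149 by edgeR). This call held in each alternative on gene counts that kept every library. The adjusted p ran from 4.9e-10 by edgeR without a filter on low counts to 0.00166 by limma-voom. Leaving out 1 library gave log2 fold changes between -0.90 and -0.69.

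HIST1H1C, which encodes the linker histone H1.2, was the second most abundant gene. Its level was 21.6 and 31.1 CPM with EV and 30.0 and 30.9 CPM with TET1-CD, and the groups overlapped (log2 fold change 0.22, SE 0.14, adjusted p = 0.323 by edgeR). EV replicate 1 was the low library. The log2 fold change was 0.50 without EV replicate 2 and -0.04 without EV replicate 1. HIST1H2BD, another H2B gene, had the same shape, with 5.48 and 9.65 CPM with EV and 7.81 and 8.01 with TET1-CD (log2 fold change 0.08, adjusted p = 0.843 by edgeR). Its log2 fold change was 0.53 without EV replicate 2 and -0.29 without EV replicate 1.

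The other H2B genes were less abundant. HIST2H2BE, the tested member of the HIST2 cluster on chromosome 1, had 114 and 127 counts with EV and 105 and 138 with TET1-CD. HIST1H2BC had 54 and 33 against 34 and 60, and HIST1H2BN 26 and 33 against 31 and 40. Their log2 fold changes were 0.02, 0.13 and 0.27, and the smallest adjusted p of the 3 was 0.588 by edgeR. HIST1H2BG was named after its values were seen, as the histone gene within the study's thresholds. It had 15 and 20 counts with EV and 7 and 9 with TET1-CD (log2 fold change -1.11, SE 0.48, adjusted p = 0.137 by edgeR).

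Among the other H2A genes, HIST1H2AG had 89 and 85 counts with EV and 86 and 96 with TET1-CD, with a log2 fold change of 0.08 (adjusted p = 0.791 by edgeR). HIST3H2A, of the small HIST3 cluster, had 39 and 41 against 48 and 51, with a log2 fold change of 0.32 (adjusted p = 0.41). HIST1H2AE had 43 and 30 against 27 and 29, with a log2 fold change of -0.36 (adjusted p = 0.423). None of these passed the test, and HIST1H2AC was the only H2A gene called.

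H3 and H4 transcripts were scarce. HIST1H4H, the leading H4 gene, had 65 and 49 counts with EV and 54 and 53 with TET1-CD (log2 fold change -0.07, adjusted p = 0.858 by edgeR). HIST1H3D and HIST1H3H were the H3 genes tested. They and HIST2H3D are named here after their values were seen. HIST1H3D had 22.5 and 23.5 counts against 17 and 23.2, and HIST1H2AD lies inside its listed span. HIST1H3H had 11 and 16 counts against 4 and 9, with an adjusted p of 0.241 by edgeR. HIST2H3D had 12 and 1 counts with EV and none with TET1-CD, so that 1 library held nearly all of them, and it was not tested with the filter on low counts. At these depths small changes in H3 and H4 genes could be missed.

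**Figure D2:**
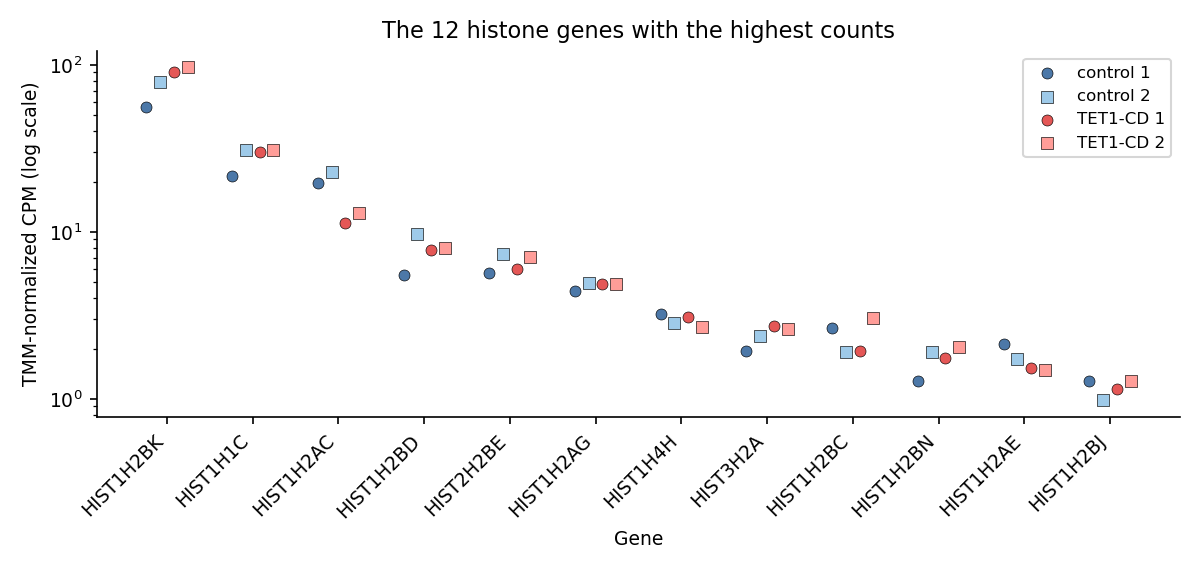
TMM-normalized CPM (vertical log axis) of the 12 histone cluster genes with most counts in each library, with EV (control) in blue, TET1-CD in red, replicate 1 as circles and replicate 2 as squares. HIST1H2AC stands at 19.6 and 22.7 CPM with EV and 11.3 and 13.0 CPM with TET1-CD, while the libraries of most genes intermix.

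Levels of different genes can only be compared per length, for which the authors' FPKM values were used. HIST1H2BK had 68.1 and 95.9 FPKM with EV and 111 and 118 with TET1-CD, above every other cluster gene in every library. HIST1H1C followed with 29.4 and 42.1 with EV and 41.1 and 42.3 with TET1-CD, and HIST1H2AC with 17.7 and 20.1 against 10.99 and 13.35. HIST1H2BD, at 7.72 and 13.0 FPKM with EV and 10.6 and 11.1 with TET1-CD, overlapped with HIST1H2AC with TET1-CD but not with EV. All further genes were lower, with HIST3H2A between 3.87 and 5.53 FPKM, and HIST1H4H between 3.39 and 4.35 FPKM, where neighbours in the order overlapped.

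Summed by class, the counts moved in different directions, and a single gene held a large share of each sum. H2B summed to 75.4 and 105 CPM with EV and 112 and 121 CPM with TET1-CD (log2 ratio 0.37), with 74.3% to 81.0% of it from HIST1H2BK. H2A summed to 29.4 and 33.7 CPM with EV and 22.5 and 24.6 CPM with TET1-CD (log2 ratio -0.42), with 50.3% to 67.4% from HIST1H2AC. Without those leading genes the log2 ratios were 0.01 for H2B and 0.13 for H2A. The H1 sum was 22.1 and 31.5 CPM against 30.5 and 31.4 CPM (log2 ratio 0.21), nearly all of it HIST1H1C. H3 summed to 2.64 and 3.50 CPM with EV and 2.05 and 2.30 CPM with TET1-CD (log2 ratio -0.49). H4 summed to 5.68 and 5.84 CPM with EV and 4.79 and 4.998 CPM with TET1-CD (log2 ratio -0.24). The libraries of the groups overlapped for H1 but not for the other 4 classes. The sums are descriptions without a p, since an exact permutation of 2 against 2 libraries cannot go below 0.33.

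Over all 80 genes the sum was 135 and 180 CPM with EV and 172 and 184 CPM with TET1-CD (log2 ratio 0.18), a difference smaller than the replicate SD of 0.21 on the log2 scale. EV replicate 1 was the low library, and without EV replicate 2 the log2 ratio was 0.395. In bulk RNA, a different share of cells in S phase and a different level per cell cannot be told apart.

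**Figure D3:**
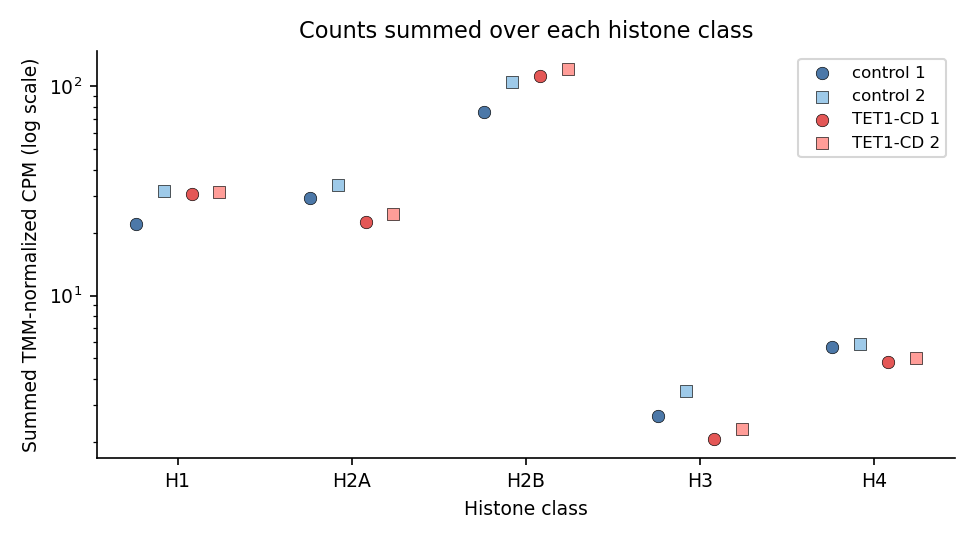
Summed CPM of the H1, H2A, H2B, H3 and H4 cluster genes in each library (vertical log axis), with EV (control) in blue and TET1-CD in red. The H2B points are higher and the H2A points lower with TET1-CD, and HIST1H2BK makes up 74.3% to 81.0% of the H2B sum.

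The genes on chromosome 6 fell into 3 stretches at least 400 kb apart. The stretch from 25726291 to 26285762 held 36 genes, among them HIST1H1C and HIST1H2AC, and gave 44.3% and 42.5% of the histone counts with EV against 35.2% and 34.7% with TET1-CD. Its CPM were 59.9 and 76.3 with EV and 60.3 and 63.9 with TET1-CD, so that the groups overlapped in level. The stretch from 27093676 to 27115317 held 5 genes, with HIST1H2BK, and gave 45.9% and 47.7% with EV against 56.5% and 56.0% with TET1-CD. Its CPM were 62.1 and 85.7 with EV and 96.9 and 103 with TET1-CD, and a share of one stretch falls when another rises. The stretch from 27775257 to 27861669 held 16 genes but only between 1.93% and 2.74% of the counts. HIST1H2BK alone made up 41.4% to 52.8% of all histone counts.

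The listed ends of the transcripts were compared with the place of the stem-loop. Of 109 listed transcripts, 28 from 20 genes were extended, meaning that they ended more than 100 bases past the stem-loop. Among them, some transcripts of HIST4H4 lay wholly past the stem-loop and do not contain it, each with at most 3 counts in any library. The 62 transcripts from 60 genes that ended at most 100 bases past the stem-loop are called stem-loop transcripts. Of these, 12 were listed as ending 11 to 315 bases before the end of the pattern. Some were classed by a GENCODE 44 end though the deposited span was longer. The spans were 571 against 460 bases for HIST1H2BC, 632 against 492 for HIST2H2BF and 577 against 412 for HIST4H4. Within the listed genes these deposited spans would end more than 100 bases past the stem-loop, so the split is approximate. The extended transcripts held 69.9% and 70.7% of the histone counts with EV and 72.6% and 73.2% with TET1-CD. Stem-loop transcripts held 29.6% and 28.5% with EV and 26.6% and 26.4% with TET1-CD. They thus came from most of the genes and were assigned the smaller share of the counts. Most genes had a single listed transcript, so their class was fixed by the annotation, as for HIST2H2BE (extended) and HIST1H1C (stem-loop). Without HIST1H2BK and HIST1H1C, the extended share was between 66.8% and 69.0% in every library, with log2 ratios of -0.25 for extended and -0.21 for stem-loop transcripts. All counts of HIST1H2BK were assigned to its extended transcript, and its other transcript was at 0 in every library. The end of that other transcript came from GENCODE 44, where it has 495 bases, while its span as deposited was 381 bases. The model that was counted may thus stop before the stem-loop, and a count of 0 does not show that no mRNA of this gene ends there.

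For HIST1H2AC, extended transcripts had 15.2 and 17.7 CPM with EV and 7.97 and 8.76 CPM with TET1-CD (log2 ratio -0.98). The transcript ending at the stem-loop had 4.45 and 4.98 CPM with EV and 3.32 and 4.24 CPM with TET1-CD (log2 ratio -0.32). The extended share was 77.3% and 78.1% with EV and 70.6% and 67.4% with TET1-CD. How a fragment is split between transcripts that share sequence is an estimate by the authors' software, and a test of single transcripts, added after the data were seen, called 0 of 25 histone transcripts and 1 of 43213 in all by edgeR, with 1 histone transcript at an unadjusted p under 0.05. In that test the HIST1H2BK transcript kept its size (log2 fold change 0.47, adjusted p = 0.49). The 3 HIST1H2AC transcripts had adjusted p-values of 0.784, 0.324 and 0.496, and whether their changes differ from each other was not tested. For HIST1H2BC, the transcript classed as stem-loop had an estimated 22.2 and 10.4 counts with EV and 3.04 and 0 with TET1-CD. The extended one had 31.8 and 22.6 counts with EV and 30.96 and 60 with TET1-CD. The stem-loop class came from a GENCODE 44 end (460 bases). By its deposited span of 571 bases that transcript would also be extended, so these values do not show a shift between ends.

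**Figure D4:**
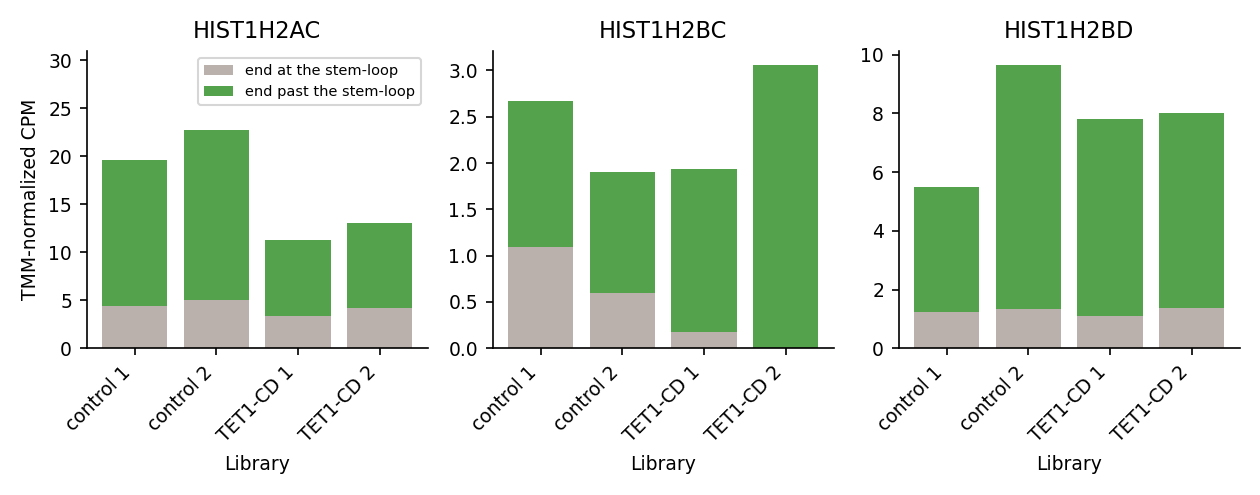
TMM-normalized CPM of HIST1H2AC, HIST1H2BC and HIST1H2BD in each library (vertical axes from 0, a different scale in each panel), with stacked bars for transcripts whose listed end lies at most 100 bases past the stem-loop (grey) or more than 100 bases past it (green, extended). In HIST1H2AC the extended transcripts go from 15.2 and 17.7 CPM with EV to 7.97 and 8.76 CPM with TET1-CD. The grey HIST1H2BC transcript was classed by its GENCODE 44 end (460 bases), while its deposited span of 571 bases would end more than 100 bases past the stem-loop.

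Many H2A and H2B genes lie head to head and share the DNA between their starts. There were 17 such pairs with at most 1000 bases between them, 15 of H2A with H2B and 2 of H3 with H2B, with gaps of 129 to 375 bases. The DNA between both called genes and their partners is shown, because in each pair the partner was not called along with the gene. Capitals mark the CCAAT box, the TATA motif with the letters TATAAA, and the octamer with the letters ATTTGCAT. Each may be read on either strand, so that some appear as their reverse complement, and neighbouring motifs may run into each other. Both are given on the plus strand of GRCh37, at chr6:26124155-26124372 for HIST1H2BC and HIST1H2AC and at chr6:27114620-27114860 for HIST1H2BK and HIST1H2AH.
HIST1H2BC/HIST1H2AC: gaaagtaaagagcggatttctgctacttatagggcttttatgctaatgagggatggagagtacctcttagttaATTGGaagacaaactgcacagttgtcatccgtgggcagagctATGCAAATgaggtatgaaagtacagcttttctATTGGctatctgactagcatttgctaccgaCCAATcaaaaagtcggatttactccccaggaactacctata
HIST1H2BK/HIST1H2AH: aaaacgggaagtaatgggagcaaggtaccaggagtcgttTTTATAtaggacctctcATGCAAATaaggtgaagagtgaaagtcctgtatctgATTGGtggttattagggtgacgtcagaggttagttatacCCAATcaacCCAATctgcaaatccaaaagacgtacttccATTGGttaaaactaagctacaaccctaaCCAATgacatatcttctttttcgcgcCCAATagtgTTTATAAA
HIST1H2AC fell, as above, while its neighbour HIST1H2BC had 54 and 33 counts with EV and 34 and 60 with TET1-CD (log2 fold change 0.13, SE 0.30, adjusted p = 0.809 by edgeR). The ratio of HIST1H2BC to HIST1H2AC counts was 0.136 and 0.084 with EV and 0.172 and 0.235 with TET1-CD, without overlap between the groups, and the difference between the genes was not tested. HIST1H2AH, the partner of HIST1H2BK, had 2 and 0 counts with EV and 3 and 2 with TET1-CD, too few for a fold change. In the other 3 pairs with both genes tested, HIST1H2BG with HIST1H2AE, HIST1H2BJ with HIST1H2AG and HIST1H3D with HIST1H2BF, no gene was called.

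Promoter motifs were searched on both strands from 250 bases before to 50 bases after the listed start, in GRCh37. The octamer ATTTGCAT, which is known from H2B promoters as a site for OCT1, was found in 37.1% of the 70 protein-coding cluster genes and in 1.65% of the windows of all 19415 protein-coding genes. It was in 14 of 18 H2B and 10 of 17 H2A genes, and in no H1 or H4 gene. Windows of head-to-head genes can overlap, so a single octamer between them can count for both, as in both pairs shown above. TATAAA was in 64.3% of the cluster genes against 10.6% of all, and CCAAT in 84.3% against 35.6%. AAACACA, an element known from H1 promoters, was in 6 of 6 H1 genes and in 5.29% of all windows. HIST1H2BK, which rose, and HIST1H2AC, which fell, both had the TATA motif, the CCAAT box and the octamer in this window. A match is a description of the sequence and not of binding.

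Replacement variants are given for comparison. Of 20 such genes, 12 were tested, 2 rose and 3 fell, with a median log2 fold change of -0.10. Across all genes tested, 10.0% rose and 9.61% fell by the same rule. H1F0, which encodes the linker histone H1.0 of resting and differentiated cells, had 576 and 635 CPM with EV and 432 and 421 CPM with TET1-CD (log2 fold change -0.50, SE 0.06, adjusted p = 4.16e-04 by edgeR). H1FX, another linker histone, fell as well (log2 fold change -0.33, adjusted p = 0.0127), as did H3F3A, a gene for H3.3 (log2 fold change -0.26, adjusted p = 0.0157). Both of these calls were lost without TET1-CD replicate 1, at adjusted p-values of 0.108 and 0.266. H2AFY2, a gene for a macroH2A, rose from 10.9 and 11.8 CPM to 18.3 and 18.5 CPM (log2 fold change 0.70, adjusted p = 0.00149). H2AFB1 was called higher too, with 2 and 3 counts with EV and 17 and 12 with TET1-CD, a ratio of 5.86 (95% interval 2.24 to 19.4 from an exact binomial test, counting error only), and its fragments may be shared with near-identical copies. With DESeq2, with 10 counts required in every library, and without EV replicate 1 or either TET1-CD library, 1 of these 2 rises was called, which was H2AFY2.

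The replacement variants together had 3079 and 3164 CPM with EV and 2743 and 2761 CPM with TET1-CD. The ratios that follow are of counts, with no correction for length, so they compare libraries and not the levels of the genes. Counts of the replacement variants were 22.8 and 17.6 times those of the cluster genes with EV and 16 and 14.99 times with TET1-CD. For the linker histones, H1F0 counts were 26.7 and 20.4 times those of HIST1H1C with EV and 14.4 and 13.7 times with TET1-CD. In both ratios EV replicate 1 was the highest library and the groups did not overlap.

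Of 27 genes that make or process histone mRNA, all of them tested, 1 rose and 1 fell, where 10.0% and 9.61% of all genes did. E2F1, which drives S-phase genes, had a log2 fold change of 0.23 (adjusted p = 0.0337 by edgeR), and ZCCHC11, which adds uridines to histone mRNA, one of -0.28 (adjusted p = 0.0153). Both calls were lost with DESeq2, at adjusted p-values of 0.0976 and 0.0669, and without either TET1-CD library, at 0.118 to 0.255 by edgeR. SLBP, the stem-loop binding protein, had a log2 fold change of 0.12 and NPAT, which activates histone transcription, one of -0.08, and neither was called. Among 26 histone chaperones, 1 fell, ANP32E, which removes H2A.Z (log2 fold change -0.27, adjusted p = 0.00764), a call that was lost without TET1-CD replicate 1 (adjusted p = 0.112) or 2 (adjusted p = 0.0916), and 0 rose by edgeR, DESeq2 or limma-voom, with 3 higher at an unadjusted p under 0.05 by edgeR.

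Of 34 S-phase genes, 7 rose and 0 fell by edgeR, where 10.0% and 9.61% of all genes did. At an unadjusted p under 0.05, 0 were lower by edgeR, and 0 were called lower by DESeq2 or limma-voom. Without EV replicate 2, some S-phase genes were called lower, in a fit that holds no spread between EV libraries. In this list 31 had a log2 fold change above 0, and the median was 0.13. CDT1, which licenses replication origins, had 49.0 and 48.5 CPM with EV and 75.8 and 75.5 CPM with TET1-CD (log2 fold change 0.63, SE 0.06, adjusted p = 8.39e-05 by edgeR). FEN1 and CDC45 rose with log2 fold changes of 0.28 and 0.36. The number that rose was larger without EV replicate 1 and smaller without either TET1-CD library, in fits that leave that group with no replicate. FEN1 and CDC45 lost their call without either TET1-CD library (adjusted p = 0.0654 to 0.122 by edgeR). PCNA, at 0.07, was not called. Among the tested cluster genes 9 of 19 were above 0, and the median of all genes tested was 0.001. Standard errors of the cluster genes ran from 0.12 (HIST1H2AC) to 0.57 (HIST1H3H). A shift as small as the S-phase median would be hard to see with such errors, and the difference between the lists was not tested.

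**Figure D5:**
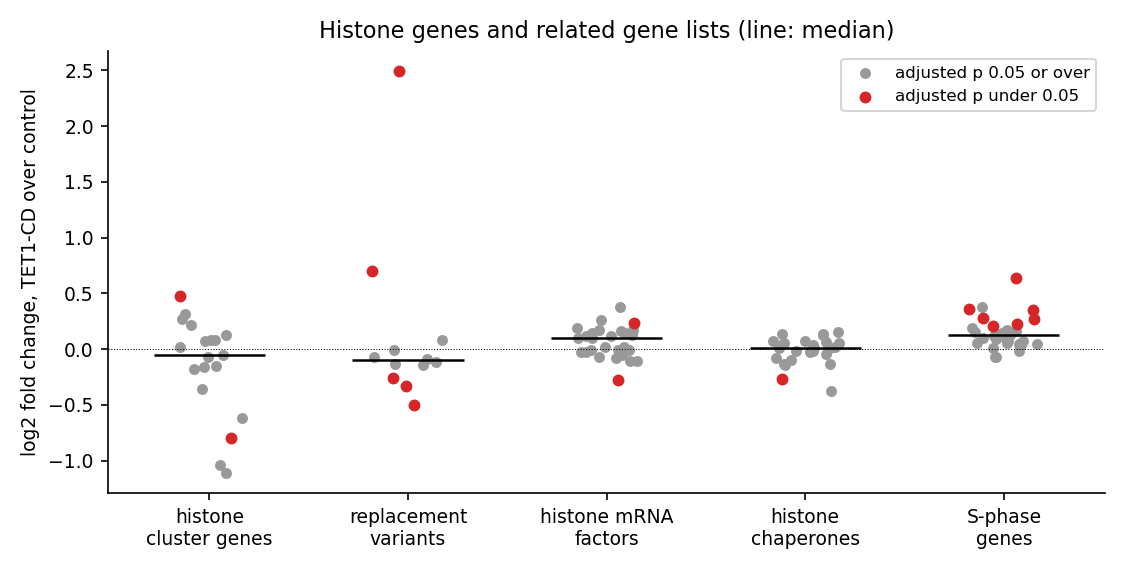
log2 fold change of TET1-CD over EV (vertical axis) for each tested gene of the histone clusters and of 4 comparison lists, with medians as lines and genes past an adjusted p of 0.05 in red. The highest point is H2AFB1, which had 2 and 3 counts with EV. Of 34 S-phase genes 31 lie above 0, and of 19 histone cluster genes 9, with standard errors of up to 0.57 (HIST1H3H).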

How the data were processed

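RNAseq libraries of T24 cells, 2 EV and 2 TET1-CD, were analysed. Expected counts per transcript, as deposited, are estimates and can hold decimals. The FPKM column deposited beside them was scaled by the authors for length and depth. The submitters' processing notes name cutadapt 1.9.1, HISAT2 2.0.1, HTSeq 0.6.1, DESeq2 and hg19. Which tool made the expected counts is not given in the sources used here.

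Expected counts were summed per gene identifier, so that transcripts were joined, and rounded. Genes were tested by edgeR 4.0.16 (glmQLFit, glmQLFTest, TMM, filterByExpr) in R 4.3.3, with Benjamini-Hochberg adjustment over 14573 genes. A call was an adjusted p under 0.05. The study's stated DEG rule is a fold change of 2 with a p under 0.05, not said to be adjusted, and was also applied. Standard errors were the log2 fold change over the square root of F. A count of 3 was taken as the floor. TMM factors were between 0.993 and 1.005. Totals were 17442143 to 20295266, and the test was checked on simulated data.

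Biotypes came from GENCODE 44 for 45 members and from RefSeq, by older symbol, for 35. Stem-loops and motifs were read from GRCh37 at the coordinates of the files. Transcript ends came from the files or, where spans agreed within 200 bases, from GENCODE 44, and 12 transcripts were not placed.

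The members and lists were chosen with earlier results of these data known. Named genes were TET1, the 12 members with most counts, every called member and, per list, the 4 genes of lowest p. The value of 1 S-phase gene is not reported here. Alternatives were DESeq2 1.42.0, limma-voom (limma 3.58.1), RLE or library size normalization, other filters, a replicate block, omission of each library, summed FPKM, protein-coding members and sums without the leading gene.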

Additional observations from a re-analysis of the deposited data

How the results depend on the processing

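HIST1H2AC kept its direction in all 11 alternatives on gene counts and its call in each that kept every library. HIST1H2BK lost its call with DESeq2, and its log2 fold changes ran from 0.234 to 0.739. Called higher were 0 members with DESeq2. Shares of all genes called are given for the main fit only, so counts under other settings cannot be set against them. Called lower were 2 members without a filter on low counts, and 1 of them with a 2-fold change, HIST2H3D, with 12 and 1 counts in EV. The log2 ratios of the class sums moved as follows. Summed FPKM gave -0.239 for H2A and -0.143 for H4. Without the leading gene they were 0.134 for H2A, 0.011 for H2B, -0.735 for H3, -0.451 for H4 and -0.09 for all members. Leaving out each library in turn gave -0.026 to 0.486 for H1, -0.518 to -0.32 for H2A, 0.145 to 0.625 for H2B, -0.682 to -0.279 for H3, -0.267 to -0.204 for H4 and -0.015 to 0.395 for all members, and the highest values for H1, H2B and all members were those without EV replicate 2. The cause of these moves was not tested. Single genes that changed sign when 1 library was left out had these extremes. The log2 fold change ran from -0.035 to 0.496 for HIST1H1C, from -0.292 to 0.528 for HIST1H2BD, from -0.174 to 0.212 for HIST2H2BE, from -0.009 to 0.155 for HIST1H2AG, from -0.164 to 0.023 for HIST1H4H, from -0.248 to 0.409 for HIST1H2BC, from -0.005 to 0.568 for HIST1H2BN, from -0.086 to 0.293 for HIST1H2BJ and from -0.226 to 0.213 for RN7SL2. Same-numbered libraries shared only a number, with a correlation of their deviations of 0.00713 over 14573 genes. The fit with the replicate block called the same 2 members, and the pairing of libraries changed no member's call, while CCNE1 and UBN2, which are no members, passed the threshold only with it and in some of the other alternatives. Among histone mRNA factors, 6 were called higher without EV replicate 1 and 3 without EV replicate 2, and 1 and 2 were called lower. Among chaperones 2 were called higher in either case, and 2 and 4 lower. With 2 libraries per group and most members under 100 counts, small changes in single genes were not detectable.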
